A study of Mus musculus with 16 samples.

Results

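The genes described here are the clustered histone genes of the mouse kidney, that is the linker histone genes named H1f and the core histone genes named H2ac, H2bc, H3c and H4c. Every gene of the count table whose symbol is one of these prefixes followed only by digits was taken, if it had at least 100 counts summed over the 16 libraries. Of 57186 genes in the table, 73 had such a symbol and 64 of these reached 100 counts, against 25408 of all genes. The 64 were 7 linker genes (H1f0, H1f1, H1f2, H1f3, H1f4, H1f5 and H1f10) and 57 core genes, of which 16 were H2ac, 17 H2bc, 11 H3c and 13 H4c genes. The other 9, H1f6, H1f7, H1f8, H1f9, H2ac1, H2ac19, H2bc1, H2bc18 and H3c13, had 0 to 74 counts. The threshold did not fall within a run of values, since H1f6 stood just below it at 74 counts and H2ac22 just above it at 250 counts.

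RNA of kidneys from 16 male mice was sequenced with a total RNA kit, which does not select for a poly(A) tail, in 4 groups of 4 libraries. All mice carried the Elmo1 H/H genotype on a C57BL/6J background, an allele that raises Elmo1 above its normal level, so the controls carry it too. The non-diabetic groups were Elmo1 H/H Ins2 +/+ without treatment (ND_C) or with B12 (ND_B12), and the diabetic groups were Elmo1 H/H Ins2 Akita/+ without treatment (D_C) or with B12 (D_B12). Akita is a dominant mutation of the insulin 2 gene that kills pancreatic beta cells, so it models insulin deficiency and not insulin resistance. B12 was given in drinking water at 10 mg per kg body weight and day from 8 weeks of age, and kidneys were taken at 16 weeks of age, whereas the labels give 16 weeks of treatment.

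Libraries held 65271308 to 91771136 counts, and values below are CPM (counts per 1000000 counts of a library) after TMM scaling, with the mean ± SD over n = 4 mice where a group is summarised. The group means printed with the study matched other sets of libraries than the labels give. Over 181 genes, the set of 4 libraries that came closest to each printed mean, out of 1820 sets, put 5 libraries into the group of their label and 11 into another. The median absolute log2 difference from the printed means was 0.000178 to 0.000263 in these closest sets. In the labelled groups it was 0.04 to 0.302, so the printed means are nearly those of the closest sets and not those of the labels. For D_C it was made of the 4 libraries labelled D_B12, and for D_B12 it was made of ND_B12 4, D_C 2, D_C 3 and D_C 4. Which of these assignments is right cannot be told from the counts, because every mouse carries Elmo1 H/H and Akita is a point mutation. The groups below are those of the labels throughout, every direction is that of the labelled libraries, and the direction of the linker sum for B12 in diabetes turns under the other assignment, as given beside the sums. The 10 dates at the start of the library names, whose meaning is not stated, run in the order of the groups, so that date and group cannot be told apart. All 11 markers of kidney epithelium were measured and summed to 13106 to 16602 CPM in the 16 libraries. Each library is a whole kidney, so fewer cells of a type and less RNA per cell cannot be told apart.

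Core histones H2A, H2B, H3 and H4 form the octamer around which DNA is wrapped, and linker histone H1 binds where the DNA enters and leaves it and helps to compact the fibre. Most of the clustered genes are replication-dependent: they have no introns, are transcribed in S phase, and end in a conserved stem-loop in place of a poly(A) tail. The stem-loop is bound by the protein SLBP, which guides the processing, translation and decay of these messages. H1f0 and H1f10 are instead expressed outside S phase and have poly(A) tails, and H1f0 is known to accumulate in differentiated cells that no longer divide, such as those of the adult kidney.

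The stem-loop differed between classes of members, and it is shown for 1 gene of each kind because it decides how these messages end. A script searched the 150 bases after every annotated stop codon in GRCm39 for a 16-base hairpin of this form. It was present in 5 of 7 linker genes, in 55 of 57 core genes and in 0.317% of 21770 protein-coding genes. The linker genes without it were H1f0 and H1f10, and the core genes without it were H2ac22 and H2bc21. The 60 members that had it carried 8 distinct sequences, with the stem in capitals and the loop in lower case below.
H1f2, chr13:23923495-23923510, plus strand: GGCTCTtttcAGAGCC
H2bc12, chr13:22220470-22220485, plus strand: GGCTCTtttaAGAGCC
H4c3, chr13:23882072-23882087, minus strand: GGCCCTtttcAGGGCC
H4c11, chr13:21919607-21919622, plus strand: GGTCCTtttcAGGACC
The sequence printed for H1f2 was that of all 5 linker genes with a stem-loop and of 38 members in all. All 47 members outside the H4c class had the stem of H1f2, with differences only in the loop. All 13 H4c genes had another stem, 11 of them that of H4c3 and 2 of them (H4c11 and H4c2) that of H4c11.

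Upstream sequences of linker and core genes held different motifs. The 250 bases before each member's main transcript in GRCm39 were searched on both strands for AAACACA (the H1 box of linker genes), ATTTGCAT (the octamer of H2B genes), CCAAT and TATAAA, none of which contains another. For the shares over all protein-coding genes, the window was the 250 bases before the annotated start of the gene. AAACACA was found in 4 of 7 linker genes, 3 of 57 core genes and 6.55% of 21770 protein-coding genes. ATTTGCAT was found in 0 of 7 linker genes, in 12 of 57 core genes (6 H2ac and 6 H2bc) and in 1.52% of all. Neighbours transcribed away from each other share bases of these windows, so the same octamer can count for both. This holds for H2ac12 with H2bc12, H2ac20 with H2bc21, H2ac8 with H2bc8, and H2ac25 with H2bc26. CCAAT was found in 4 linker and 44 core genes and in 36.1% of all, and TATAAA in 4 linker and 26 core genes and in 12.5% of all. The 150 bases next to the start are printed for the 4 linker genes with an H1 box, and for H2bc12, a core gene with the octamer, with each of the 4 motifs in capitals in either orientation.
H1f0, chr15:78912500-78912649, plus strand: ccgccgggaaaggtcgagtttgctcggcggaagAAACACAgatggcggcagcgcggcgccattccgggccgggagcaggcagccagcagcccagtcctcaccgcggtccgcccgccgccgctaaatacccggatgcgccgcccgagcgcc
H1f2, chr13:23922641-23922790, plus strand: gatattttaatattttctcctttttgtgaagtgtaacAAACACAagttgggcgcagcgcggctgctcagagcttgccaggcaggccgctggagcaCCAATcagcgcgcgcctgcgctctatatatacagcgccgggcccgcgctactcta
H1f4, chr13:23806542-23806691, minus strand: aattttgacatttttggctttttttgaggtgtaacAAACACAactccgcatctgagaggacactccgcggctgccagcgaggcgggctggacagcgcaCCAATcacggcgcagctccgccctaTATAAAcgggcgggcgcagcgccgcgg
H1f5, chr13:21964796-21964945, minus strand: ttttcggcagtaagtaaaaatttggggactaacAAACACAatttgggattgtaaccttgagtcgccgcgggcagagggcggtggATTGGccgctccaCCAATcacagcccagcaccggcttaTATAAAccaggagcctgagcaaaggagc
H2bc12, chr13:22219890-22220039, plus strand: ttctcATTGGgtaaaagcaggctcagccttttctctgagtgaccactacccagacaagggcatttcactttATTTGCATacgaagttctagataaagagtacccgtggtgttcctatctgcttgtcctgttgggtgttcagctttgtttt
The H1 box is thus present upstream of H1f0, which has no stem-loop, as well as upstream of 3 replication-dependent linker genes. No AAACACA stood in the windows of H1f1, H1f3 or H1f10, and the annotated transcript of H1f3 is 7425 bases long. A match is a run of letters and not a binding site shown by these data.

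Of the 64 members, 51 lie on chromosome 13, 7 on chromosome 3, 3 on chromosome 11, 2 on chromosome 6 and 1 on chromosome 15. The most abundant linker genes lie apart from each other, with H1f2 at chr13:23922791-23924350 on the plus strand, H1f4 at chr13:23804612-23806541 on the minus strand and H1f0 at chr15:78912650-78914704 on the plus strand. H1f10 is at chr6:87957403-87958619 on the minus strand. In 60 of 64 members the main transcript has 1 exon. H2bc4, at chr13:23867631-23878163 on the plus strand, is among the exceptions with 2 exons in its main transcript.

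Sequence shared with other genes limits what counts of single core genes mean, and of linker genes less. Windows were compared on both strands with transcripts of GENCODE M39, so overlapping genes count as well as near-identical copies. The gene that shared most was the overlapping Gm20633 for H2ac18 and Trim17 for H2ac25, and the copy H2bc23 for H2bc24. Of the 50-base windows of a core gene's main transcript, the median share that also occurs in a transcript of another gene was 63.5%, against 5.68% in linker genes. More than 50% of the windows were shared in 35 of 57 core genes and in 0 of 7 linker genes, where the highest share was 33.7%, in H1f4, mostly with an overlapping transcript of H2bc6. H2ac18, H3c14 and H2bc24 shared 100% of their windows, and their counts are uncertain. H2ac18 was listed at 0 in ND_C 4, D_C 1, D_C 2, D_B12 3 and D_B12 4, and between 3.81 and 46.4 CPM in the other libraries. H3c14, the H3c gene with the highest mean CPM, was listed at 12.8, 10.8, 10.9 and 8.14 CPM in the ND_C libraries (1 to 4), 13.7, 1.89, 2.04 and 0.171 in ND_B12, 7.32, 4.41, 1.45 and 3.66 in D_C and 8.06, 6.25, 4.09 and 7.49 in D_B12. Both genes varied widely within groups, and core medians without them are in the closing section.

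Per kilobase of main transcript and averaged over the 16 libraries, H4c3 was the most abundant member at 104 CPM per kb. It was followed by H4c8 at 94.0, H1f2 at 80.6, H2bc4 at 60.5, H1f0 at 60.2, and H1f4 at 31.0 CPM per kb. Of H4c8, 97.9% of windows were shared with another gene, so its place is uncertain. The other linker genes were far lower, at 3.33 CPM per kb for H1f1, 0.922 for H1f5, 0.765 for H1f3 and 0.612 for H1f10, with H1f3 divided by its long annotated transcript. Among H2ac genes, H2ac20 was at 18.2 and H2ac25 at 10.9 CPM per kb. H1f0, H1f2 and H1f4 together made up the bulk of linker counts, with H1f0 giving 32.5% to 44.6% of the linker sum, H1f2 34.3% to 43.9% and H1f4 16.6% to 22.1% over the 16 libraries.

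The question of linker against core histones was first asked of each library as a whole. The summed linker CPM was 308, 289, 315 and 259 in ND_C 1 to 4 and 292, 339, 295 and 364 in ND_B12 1 to 4. It was 319, 322, 452 and 484 in D_C 1 to 4 and 243, 248, 307 and 270.4 in D_B12 1 to 4. The D_C libraries were thus all above every ND_C and every D_B12 library, and D_C 3 and D_C 4 stood above all the others. The mean was 394 ± 86.1 CPM in D_C, 267 ± 29.2 in D_B12, 292 ± 25.0 in ND_C and 322 ± 35.2 in ND_B12, so that by the labels D_B12 had 0.678 of the D_C mean and D_C had 1.35 times the ND_C mean.

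Both directions depend on the labels. In the set closest to the printed D_B12 mean (ND_B12 4, D_C 2, D_C 3 and D_C 4) the linker sums were 364, 322, 452 and 484 CPM. All 4 were above the sums of the set closest to the printed D_C mean (the 4 libraries labelled D_B12), so that under that assignment the linker sum would be higher and not lower with B12 in diabetic kidneys. In the set closest to the printed ND_C mean (ND_C 1, ND_C 2, ND_C 4 and ND_B12 1) the sums were 308, 289, 259 and 292 CPM. These overlap the sums of the libraries labelled D_B12, so that under that assignment untreated diabetic and control kidneys would overlap. H1f0 was at 152, 144, 147 and 185 CPM in the set for D_B12 and at 100.2, 94.5, 119.5 and 108 in the set for D_C, again without overlap and in the direction opposite to that of the labels. No test was made on these sets.

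The summed core CPM took another course. It was 500.2, 467, 519 and 418 in ND_C 1 to 4 and 483, 477, 461 and 459 in ND_B12 1 to 4. It was 405, 356, 414 and 463 in D_C 1 to 4 and 394, 423, 365 and 384 in D_B12 1 to 4. D_C and D_B12 overlapped, D_C and ND_C overlapped, and all 4 D_B12 libraries were below all 4 ND_B12 libraries. The D_C mean was 0.86 of the ND_C mean, and the D_B12 mean was 0.956 of the D_C mean. Both ratios are uncertain, because the core sums hold H2ac18 and H3c14, whose counts are uncertain. H2ac18 had a mean of 31.4 CPM in ND_C, 7.73 in D_C and 13.1 in D_B12. H3c14 had a mean of 10.7 CPM in ND_C, 4.21 in D_C and 6.47 in D_B12. Part of the lower core mean in D_C than in ND_C thus came from H2ac18 and H3c14.

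**Figure D1:**
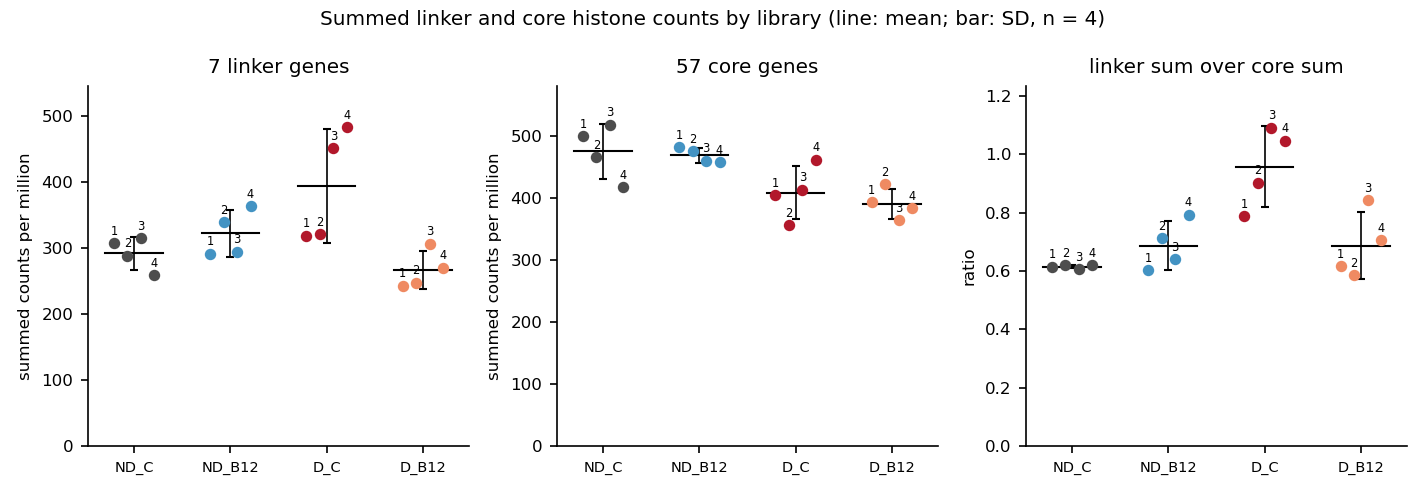
Summed CPM of the 7 linker genes (left), of the 57 core genes (middle) and the ratio of the sums (right) in each of the 16 libraries, with points numbered by replicate, lines at group means and bars of 1 SD (n = 4). The linker sums of the 4 D_C libraries, 319 to 484, lie above those of all ND_C and D_B12 libraries, and the D_C ratios, 0.788 to 1.09, lie above those of all ND_C libraries.

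The ratio of linker to core sums, which does not depend on the scaling of a library, was 0.615, 0.619, 0.606 and 0.619 in ND_C 1 to 4 and 0.603, 0.712, 0.64 and 0.793 in ND_B12 1 to 4. It was 0.788, 0.903, 1.09 and 1.05 in D_C 1 to 4 and 0.616, 0.585, 0.842 and 0.704 in D_B12 1 to 4. ND_C libraries were all between 0.606 and 0.619, a narrower range than in any other group. This range is uncertain, because the core sums hold H2ac18, which was listed at 0 in ND_C 4 only among the ND_C libraries. The H2ac genes summed to 37.5 CPM in ND_C 4 and to 86.7 to 97.7 in ND_C 1 to 3. D_C did not overlap ND_C, but D_C 1 lay below D_B12 3, so D_C and D_B12 overlapped. No test was made of these sums, since the members were chosen with results of these data known.

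Among single linker genes, the 3 abundant ones, H1f2, H1f0 and H1f4, had their highest values in D_C. H1f2, a replication-dependent H1, was at 131, 120.4, 132 and 97.4 CPM in the ND_C libraries (1 to 4), 120.0, 136, 116 and 136 in ND_B12, 125, 116, 198 and 195 in D_C and 83.4, 90.0, 121 and 94.2 in D_B12. H1f0, the replacement H1 of differentiated cells, was at 112, 111, 118 and 99.4 CPM in the ND_C libraries (1 to 4), 112, 133, 116 and 152 in ND_B12, 129, 144, 147 and 185 in D_C and 100.2, 94.5, 119.5 and 108 in D_B12. H1f4, one of the main H1 proteins of somatic cells, was at 53.3, 49.9, 55.0 and 53.9 CPM in the ND_C libraries (1 to 4), 51.2, 62.9, 55.2 and 65.2 in ND_B12, 57.5, 53.2, 87.4 and 88.4 in D_C and 51.6, 54.6, 58.1 and 59.7 in D_B12. D_C 3 and D_C 4 were the highest of all 16 libraries for H1f2 and H1f4, while D_C 1 and D_C 2 lay among the non-diabetic libraries. For H1f0 all 4 D_C libraries lay above all ND_C and all D_B12 libraries, although ND_B12 2 and ND_B12 4 lay within their range.

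The 4 scarcer linker genes were each at or below 13.0 CPM in every library. H1f3, a replication-dependent H1, was at 7.88, 4.53, 5.48 and 4.35 CPM in the ND_C libraries (1 to 4), 4.93, 3.8, 3.92 and 5.93 in ND_B12, 4.47, 5.09, 13.0 and 11.3 in D_C and 3.88, 3.91, 4.98 and 3.48 in D_B12. H1f5, also replication-dependent, was at 1.08, 0.745, 0.71 and 0.579 CPM in the ND_C libraries (1 to 4), 0.601, 0.749, 0.374 and 0.854 in ND_B12, 0.668, 0.647, 0.971 and 0.986 in D_C and 0.441, 0.341, 0.601 and 0.621 in D_B12. H1f10, a divergent H1 variant, was at 0.838, 0.522, 0.81 and 0.989 CPM in the ND_C libraries (1 to 4), 0.519, 0.637, 0.514 and 0.793 in ND_B12, 0.732, 0.659, 1.86 and 1.02 in D_C and 0.378, 0.386, 0.751 and 0.515 in D_B12. H1f3 and H1f10 again peaked in D_C 3, H1f5 in ND_C 1. H1f1, best known from the testis and from some lymphoid tissue, differed from the rest, with 2.26, 2.05, 2.7 and 2.16 CPM in the ND_C libraries (1 to 4), 2.12, 1.81, 1.91 and 2.56 in ND_B12, 1.28, 2.58, 3.26 and 2.24 in D_C and 3.02, 3.86, 2.16 and 3.5 in D_B12. Its highest library was D_B12 2 and its lowest D_C 1.

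**Figure D2:**
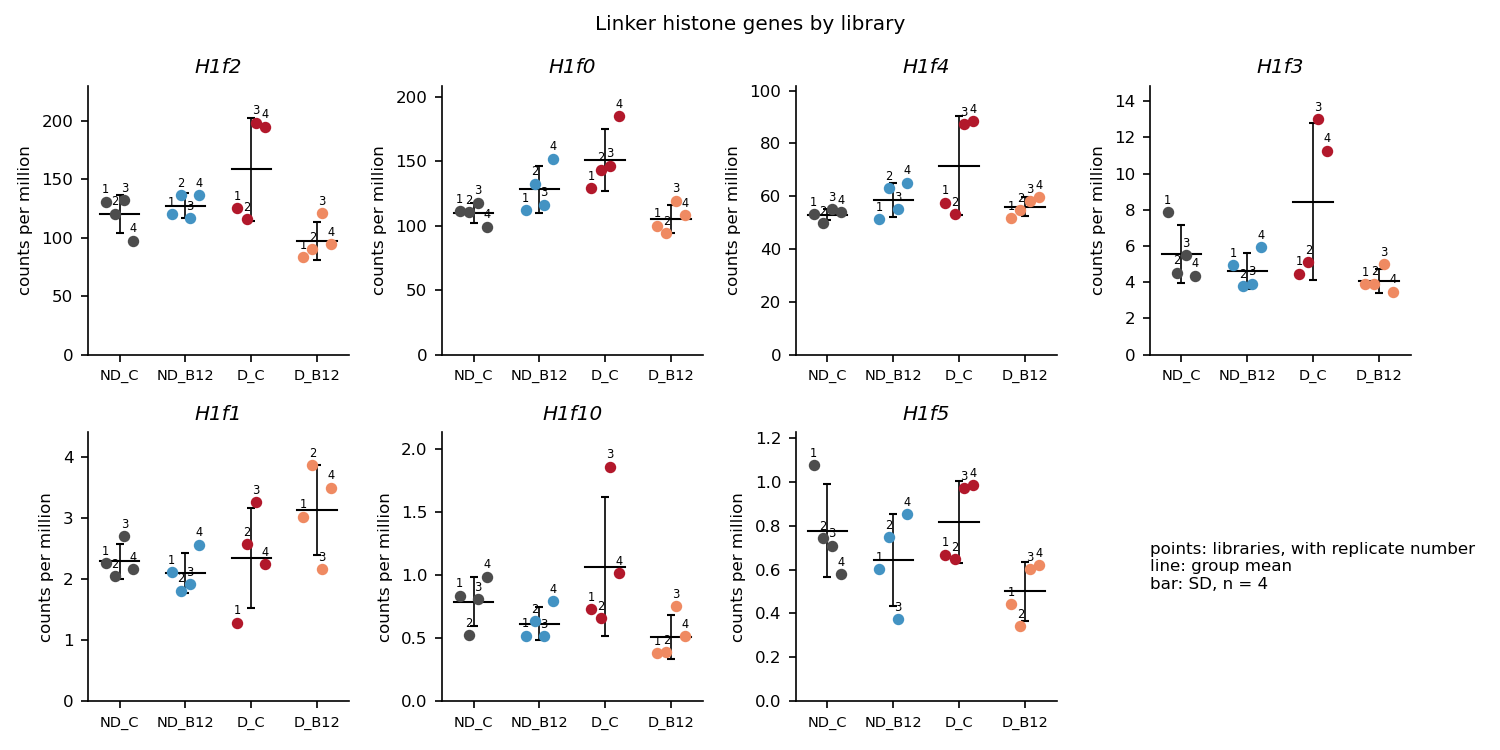
CPM of each linker gene in the 16 libraries, with points numbered by replicate, lines at group means and bars of 1 SD (n = 4). H1f2 and H1f4 reach 198 and 88.4 CPM in D_C 3 and D_C 4 respectively, whereas D_C 1 and D_C 2 lie among the other groups, and H1f1 is highest in D_B12 2 at 3.86 CPM.

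For B12 in diabetic kidneys (D_B12 against D_C), 6 of the 7 linker genes were lower with an unadjusted p below 0.05 and H1f1 was higher without passing it. No member, and 0% of the 25408 genes tested, had an adjusted p below 0.05 in edgeR's quasi-likelihood test, although 3468 genes had an unadjusted p below 0.05, 6.44% of all genes higher and 7.21% lower. DESeq2 called 569 of all genes and 3 members, H1f0, H1f2 and H1f3. H1f0 went from 151 ± 23.9 CPM in D_C to 106 ± 10.9 CPM in D_B12, with log2 fold change -0.52 ± 0.11 (SE), unadjusted p = 0.000328, adjusted p = 0.085. H1f2 went from 159 ± 44.1 CPM to 97.1 ± 16.4 CPM, with log2 fold change -0.71 ± 0.17 (SE), unadjusted p = 0.000599, adjusted p = 0.0978. H1f3 had log2 fold change -1.06 ± 0.30 (SE), unadjusted p = 0.00292, adjusted p = 0.149, and H1f10 had log2 fold change -1.07 ± 0.33 (SE), unadjusted p = 0.00485, adjusted p = 0.172. Log2 fold changes were -0.71 (unadjusted p = 0.0218) for H1f5, -0.36 (unadjusted p = 0.02) for H1f4 and 0.42 (unadjusted p = 0.0875) for H1f1. The median log2 fold change was -0.71 over linker genes and -0.12 over core genes, beside -0.00 over all genes tested.

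The linker difference was smaller without D_C 3 and D_C 4, which share 1 date in their library names. They had the highest linker sums of all 16 libraries, and leaving them out was decided after the data were seen. Leaving them out lowers the D_C linker mean by construction, so that fit only describes their part in the difference. Depth overlapped between the groups, with 85751266 to 91771136 counts in D_C and 65271308 to 88299908 in D_B12, and the part of depth was not tested. With the date as a linear covariate the linker median was -1.22. Without D_C 3 and D_C 4, in a fit of the other 14 libraries, the linker median was -0.30 and 2 of 7 linker genes remained lower with an unadjusted p below 0.05, H1f0 at -0.36 (unadjusted p = 0.00866) and H1f2 at -0.30 (unadjusted p = 0.0495). In that fit H1f4 was at 0.03 (unadjusted p = 0.79) and H1f3 at -0.22 (unadjusted p = 0.361), and 1 linker gene was higher at that threshold. Of all 25408 genes, 0 had an adjusted p below 0.05 in that fit. The share of all genes at the unadjusted threshold is not given for it, so these counts have no background beside them. In all 16 libraries, the groups did not overlap for H1f0 and H1f5 among linker genes.

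Core genes went both ways in the same comparison. Of 57, 10 (17.5%) were lower and 3 (5.26%) higher with an unadjusted p below 0.05, against 7.21% lower and 6.44% higher of all genes. With no overlap of the groups 4 were lower and 4 higher, against 3.13% lower and 3.48% higher of all genes. Those lower by the unadjusted p came mostly from the H4c class, in which 6 of 13 were lower and 0 higher at that threshold, with a class median of -0.24. The 3 largest decreases among these were H3c6 (-0.62, unadjusted p = 0.00553), H4c6 (-0.56, unadjusted p = 0.00609) and H4c11 (-0.52, unadjusted p = 0.00341). H4c6 was at 2.67, 3.15, 2.95 and 3.26 CPM in D_C 1 to 4 and at 1.44, 2.0, 2.05 and 2.66 in D_B12 1 to 4, which did not overlap. H4c3, the most abundant H4c gene, was at 84.0, 75.9, 102 and 88.3 CPM in D_C and 64.3, 78.0, 80.2 and 75.1 in D_B12, which overlapped, with a log2 fold change of -0.24 (unadjusted p = 0.0403).

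The 3 core genes that were higher with an unadjusted p below 0.05 encode H2B. At 5.26% of core genes, they were no larger a share than the 6.44% of all genes that were higher. H2bc3 was at 1.78, 2.22, 1.5 and 2.43 CPM in D_C 1 to 4 and 2.51, 3.01, 2.57 and 3.25 in D_B12 1 to 4, which did not overlap, with a log2 fold change of 0.51 (unadjusted p = 0.0103). H2bc11 was at 1.43, 1.59, 1.23 and 1.61 CPM in D_C and 2.13, 2.07, 1.82 and 1.88 in D_B12, also without overlap, with 0.43 (unadjusted p = 0.00229). H2bc12 had 0.37 (unadjusted p = 0.0213) with overlapping groups. By sign alone, 11 of 17 H2bc genes were higher and 6 lower, with a median of 0.05, and 3 of them were higher and 1 lower with an unadjusted p below 0.05. By sign alone 3 of 16 H2ac genes were higher and 13 lower, of which 0 and 1 passed that threshold. Of 11 H3c genes 5 were higher and 6 lower, of which 0 and 2 passed it. Without D_C 3 and D_C 4, 1 core gene was lower and 4 were higher with an unadjusted p below 0.05, and the core median was 0.0031. The share of all genes at that threshold is not given for this fit.

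**Figure D3:**
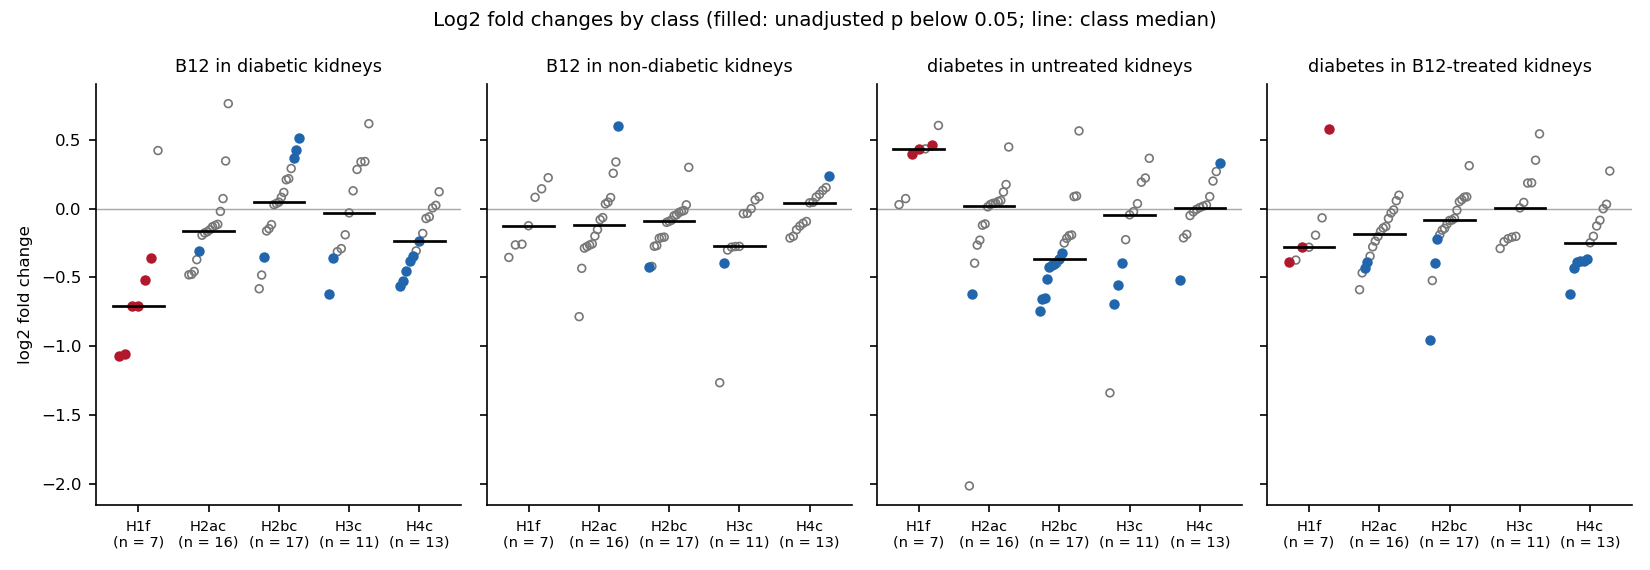
Log2 fold changes of all 64 members by class, 1 panel per comparison, with filled points where the unadjusted p was below 0.05 and a line at the class median. In diabetic kidneys 6 of 7 linker genes are lower with B12, and in untreated kidneys 7 of 7 linker genes are higher and 14 of 17 H2bc genes lower with diabetes.

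For B12 in non-diabetic kidneys (ND_B12 against ND_C), no linker gene had an unadjusted p below 0.05. Linker differences ran from -0.35 (unadjusted p = 0.296) for H1f10 to 0.23 (unadjusted p = 0.064) for H1f0, and the linker median was -0.12. Of core genes, 2 were higher and 2 lower at that threshold, where 3.67% of all genes were higher and 3.95% lower. H2ac21 was higher at 0.60 (unadjusted p = 0.0268) and H4c3 at 0.24 (unadjusted p = 0.0387), and H2bc13 was lower at -0.43 (unadjusted p = 0.0425) and H3c3 at -0.40 (unadjusted p = 0.0275). No member had groups that did not overlap, beside 2.76% of all genes apart and higher and 2.09% apart and lower. No member passed an adjusted p of 0.05, nor did any of the 25408 genes (0%), of which 1937 had an unadjusted p below 0.05, and DESeq2 called 6 genes and 0 members.

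For diabetes in untreated kidneys (D_C against ND_C), all 7 linker genes were higher, 3 of them with an unadjusted p below 0.05, and 14 of 17 H2bc genes were lower. No linker gene passed an adjusted p of 0.05 in edgeR, and H1f0 and H1f4 did in DESeq2, which called 1467 of all genes. H1f0 had log2 fold change 0.46 ± 0.11 (SE), unadjusted p = 0.000919, adjusted p = 0.0517, with 109.9 ± 7.75 CPM in ND_C. H1f4 had a log2 fold change of 0.43 (unadjusted p = 0.00622) and H1f2 of 0.40 (unadjusted p = 0.0279). H1f3 had 0.61 (unadjusted p = 0.0591), H1f10 0.44 (unadjusted p = 0.193), H1f5 0.07 (unadjusted p = 0.791) and H1f1 0.03 (unadjusted p = 0.902). The linker median was 0.43 with all libraries and -0.19 without D_C 3 and D_C 4, which were chosen after their high values were seen. H1f0 was 0.31 (unadjusted p = 0.0204) without them, H1f4 0.06 (unadjusted p = 0.531) and H1f2 0.00 (unadjusted p = 0.996).

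H2bc12 and H2bc4 fell with diabetes by the adjusted p. This was 2 of 64 members, beside 1.66% of all genes with an adjusted p below 0.05. H2bc12 was at 3.63, 2.73, 3.32 and 2.39 CPM in ND_C 1 to 4 and 1.76, 2.12, 1.7 and 2.11 in D_C 1 to 4. The D_C values of H2bc12 were all below those of ND_C, with log2 fold change -0.65 ± 0.14 (SE), unadjusted p = 0.000336, adjusted p = 0.0408. H2bc4, the most abundant H2B gene, was at 111, 115, 119 and 114 CPM in ND_C and 99.9, 81.9, 74.2 and 99.9 in D_C, also apart, with log2 fold change -0.37 ± 0.08 (SE), unadjusted p = 0.000382, adjusted p = 0.0414. Without D_C 3 and D_C 4 together 0 members passed, but 0 of all 25408 genes passed as well, against 423 of all genes with all libraries. Leaving out ND_C 1, 2 or 3, ND_B12 2, D_C 2, 3 or 4, or D_B12 2 alone also gave 0 members. These fits called only 0 to 173 of all genes, so the loss of calls was not particular to these members. Leaving out ND_B12 3 gave 1 member, and leaving out D_C 1 gave 4. Of all genes, 296 were called without ND_B12 3 and 1551 without D_C 1. Without D_C 3 and D_C 4 the log2 fold changes were -0.64 (unadjusted p = 0.00323) for H2bc12 and -0.34 (unadjusted p = 0.00107) for H2bc4. Of the windows of H2bc12, 74.2% occurred in other genes, mainly H2bc24, and of those of H2bc4 35.6%.

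By unadjusted p below 0.05, 14 of 57 core genes were lower and 1 higher with diabetes in untreated kidneys, beside 9.28% lower and 9.31% higher of all genes. Of these 14, 9 were among the 17 H2bc genes, whose median was -0.37, 3 among the H3c genes, and 1 each among the H2ac and H4c genes. The 3 largest decreases of core genes at this threshold were H2bc14 (-0.74, unadjusted p = 0.0449), H3c15 (-0.69, unadjusted p = 0.00731) and H2bc3 (-0.66, unadjusted p = 0.00188). H3c15 was at 7.26, 7.12, 6.58 and 5.32 CPM in ND_C and 4.33, 2.82, 4.49 and 4.6 in D_C, without overlap. H3c3 was at -0.55 (unadjusted p = 0.00377), H3c2 at -0.40 (unadjusted p = 0.0178), H2bc11 at -0.40 (unadjusted p = 0.00405) and H2bc13 at -0.42 (unadjusted p = 0.0428). The 1 core gene that was higher, H4c11, was at 2.3, 1.96, 2.16 and 1.76 CPM in ND_C and 1.98, 2.38, 3.28 and 2.67 in D_C, which overlapped, with 0.33 (unadjusted p = 0.0433). Among core genes 10 were lower and 0 higher with no overlap of the groups, and among linker genes H1f0 was higher, beside 4.61% of all genes apart and lower and 4.84% apart and higher. The count of lower core genes was 14 with and without D_C 3 and D_C 4, but the share of all genes is not given for the fit without them.

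**Figure D4:**
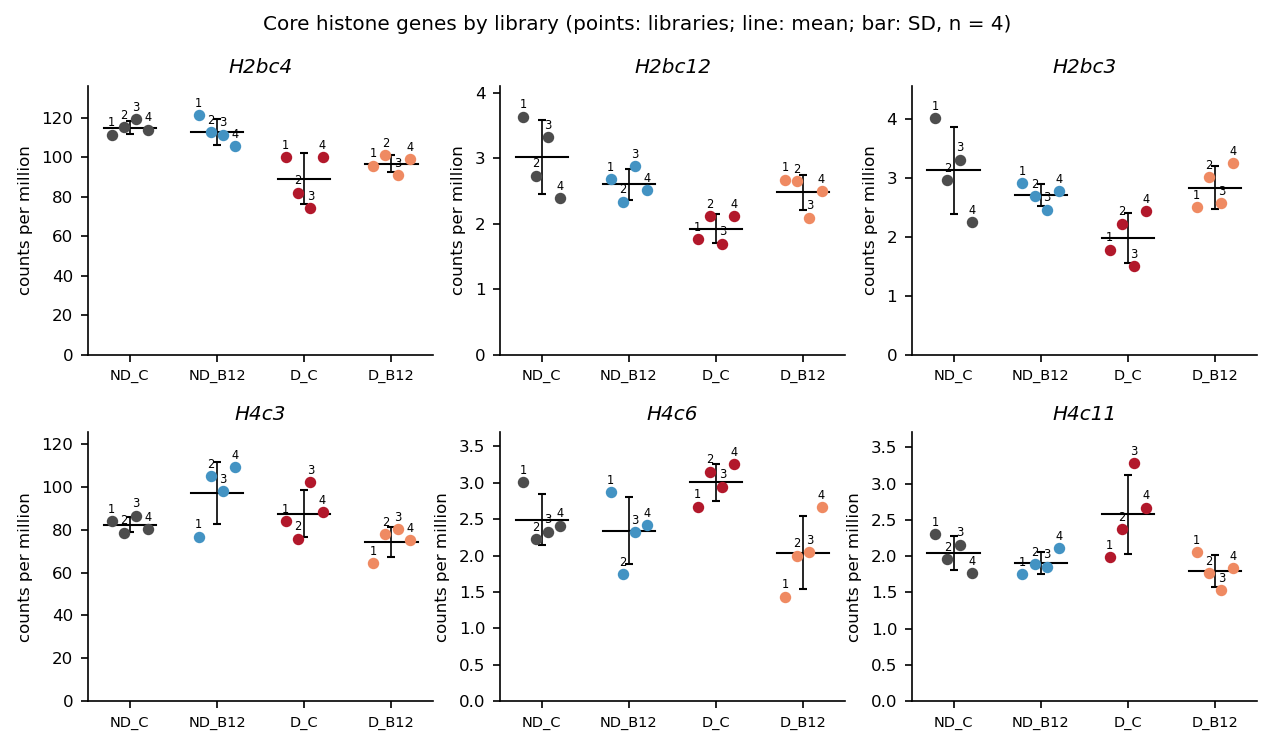
CPM of 3 H2B genes (top) and 3 H4 genes (bottom) in the 16 libraries, with points numbered by replicate, lines at group means and bars of 1 SD (n = 4). H2bc4 and H2bc12 lie lower in all 4 D_C libraries than in all 4 ND_C libraries, whereas H4c6 lies lower in all 4 D_B12 libraries than in all 4 D_C libraries.

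For diabetes in B12-treated kidneys (D_B12 against ND_B12), 11 of 57 core genes were lower and 0 higher with an unadjusted p below 0.05, beside 9.2% lower and 7.79% higher of all genes. Of these, 6 were H4c genes, led by H4c16, an H4 gene at chr6:136778551-136781413 on the minus strand. H4c16 had log2 fold change -0.62 ± 0.17 (SE), unadjusted p = 0.00204, adjusted p = 0.085. H4c3 had log2 fold change -0.39 ± 0.11 (SE), unadjusted p = 0.00217, adjusted p = 0.0853. The other 2 of the 3 largest decreases with an unadjusted p below 0.05 were H2bc14 (-0.96, unadjusted p = 0.0158) and H2ac25 (-0.43, unadjusted p = 0.00472). H2ac25 was at 28.9, 27.4, 26.0 and 23.4 CPM in ND_B12 and 19.4, 20.9, 16.9 and 21.2 in D_B12, without overlap. H2bc14 was at 0.492, 0.474, 0.545 and 0.537 CPM in ND_B12 and 0.34, 0.205, 0.208 and 0.303 in D_B12, also without overlap but below 1 CPM. H2bc4 was lower again at -0.22 (unadjusted p = 0.0157), from 121, 113, 111 and 105 CPM in ND_B12 to 95.6, 101, 90.9 and 98.8 in D_B12, which did not overlap.

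By sign, 6 of 7 linker genes were lower and 1 was higher with diabetes in B12-treated kidneys, and 2 and 1 of these had an unadjusted p below 0.05. H1f2 was at -0.39 (unadjusted p = 0.0314) and H1f0 at -0.28 (unadjusted p = 0.0243), both lower, and H1f1 was higher at 0.58 (unadjusted p = 0.0256). The linker median was -0.28 and the core median -0.14. No member passed an adjusted p of 0.05 in edgeR, which 0.823% of all genes did. DESeq2 called 1088 of all 25408 genes and 3 of the 64 members, H2ac25, H4c16 and H4c3. Of core genes 9 were lower and 1 higher without overlap of the groups, beside 6.77% and 4.98% of all genes, and of linker genes 0.

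The interaction asks whether the difference with B12 differed between diabetic and non-diabetic kidneys. No member passed an adjusted p of 0.05, as none of all genes did (0%), of which 4093 had an unadjusted p below 0.05. H1f0 had log2 fold change -0.74 ± 0.16 (SE), unadjusted p = 0.00028, adjusted p = 0.0592, and H1f2 had log2 fold change -0.79 ± 0.23 (SE), unadjusted p = 0.00384, adjusted p = 0.126. With H1f4 at -0.50 (unadjusted p = 0.0206), 3 of 7 linker genes were lower with an unadjusted p below 0.05 and 0 higher, beside 8.1% lower and 8.01% higher of all genes. Log2 differences of the other linker genes were -0.80 (unadjusted p = 0.0779) for H1f3, -0.72 (unadjusted p = 0.141) for H1f10, -0.45 (unadjusted p = 0.272) for H1f5 and 0.55 (unadjusted p = 0.118) for H1f1. The linker median was -0.72, and -0.11 without D_C 3 and D_C 4, the libraries of highest linker sum. DESeq2 called 781 of all genes in the interaction and 2 members, H1f0 and H1f2.

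Of core genes, 29 were lower and 28 higher in the interaction, and 6 and 7 of these had an unadjusted p below 0.05. Among those with an unadjusted p below 0.05, the largest increases were H3c3 (0.74, unadjusted p = 0.00564), H2bc3 (0.72, unadjusted p = 0.0105) and H3c2 (0.59, unadjusted p = 0.0143), and the largest decreases H3c6 (-0.59, unadjusted p = 0.0486), H4c12 (-0.58, unadjusted p = 0.0253) and H2ac20 (-0.56, unadjusted p = 0.0109). H3c3 was at 2.33, 1.75, 1.75 and 1.57 CPM in the ND_C libraries (1 to 4), 1.35, 1.16, 1.32 and 1.77 in ND_B12, 1.1, 1.12, 1.41 and 1.4 in D_C and 1.7, 1.75, 1.49 and 1.44 in D_B12. Its D_C libraries lay below all ND_C libraries, and its D_B12 libraries above all D_C libraries. H4c3 (-0.48, unadjusted p = 0.00593), H2bc12 (0.58, unadjusted p = 0.0111) and H2bc11 (0.45, unadjusted p = 0.0164) were also among these 13. Values beyond these that did not pass the threshold included those of H3c14 (1.88, unadjusted p = 0.0877) and H2ac18 (1.55, unadjusted p = 0.504), whose counts are uncertain, and of H2ac21 (-0.73, unadjusted p = 0.0531). By sign 12 of 17 H2bc genes were higher and 5 lower, of which 4 and 0 passed the threshold, and 3 of 13 H4c genes were higher and 10 lower, of which 0 and 3 passed it. The comparisons share groups of libraries, so the same libraries enter several of these counts.

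Neighbouring members transcribed away from each other did not always share a sign. There were 12 head-to-head pairs of members, 11 of an H2ac with an H2bc gene and 1 of an H2bc with an H3c gene, with 175 to 659 bases between the starts. The same sign was found in 4 of 12 pairs for diabetes in untreated kidneys, 5 for B12 in diabetic kidneys, 6 in the interaction, 7 for diabetes in B12-treated kidneys and 8 for B12 in non-diabetic kidneys. H2bc12 had a log2 fold change of -0.65 with diabetes in untreated kidneys and H2ac12, 301 bases away, of 0.06. H2bc11 had -0.40 and its neighbour H2ac11 -0.23. H2bc7 had -0.51 and H2ac7 0.01.

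Transcript counts added little for most members, since 58 of 64 had 1 transcript in the transcript table. H2bc6 was among the 6 with more. Its transcript H2bc6-202 was at 5.99, 4.02, 5.21 and 4.4 CPM in ND_C 1 to 4, 4.4, 4.16, 2.14 and 5.04 in D_C 1 to 4 and 2.12, 4.37, 0 and 0 in D_B12 1 to 4. H2bc6-201 was at 0, 0, 0 and 0 CPM in ND_C, 0, 0, 1.19 and 0 in D_C and 2.34, 0, 3.41 and 4.31 in D_B12. In D_B12 3 and D_B12 4 H2bc6-202 was at 0 and H2bc6-201 at its highest. Both transcripts overlap H1f4 in part, and no test was made. Of H1f10, 98.3% of counts were given to H1f10-202.

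Genes that act with histones are given by list, beside the shares of all genes. At an unadjusted p below 0.05, 6.44% of all genes were higher and 7.21% lower for B12 in diabetic kidneys. With diabetes in untreated kidneys 9.31% were higher and 9.28% lower, and with diabetes in B12-treated kidneys 7.79% and 9.2%. Of 12 genes for the transcription and 3′ end processing of histone messages, 0 had an unadjusted p below 0.05 in the B12 comparison of diabetic mice and 1 with diabetes in untreated mice, Slbp, the stem-loop binding protein (0.14, unadjusted p = 0.0366). Of 11 histone chaperones, 0 passed in either comparison, and 4 were lower with an unadjusted p below 0.05 for diabetes in B12-treated kidneys, led by Npm1 (-0.35, unadjusted p = 0.000643) and Nap1l1 (-0.25, unadjusted p = 0.00302). Of 9 replication-independent core variants, 1 was lower with an unadjusted p below 0.05 for B12 in diabetic kidneys, H3f3b, which encodes H3.3 (-0.28, unadjusted p = 0.0131). With diabetes in untreated kidneys H3f3b was higher (0.26, unadjusted p = 0.0231), and H2aj and H2az1 were lower. For diabetes in B12-treated kidneys 3 of the 9 variants were lower and 0 higher with an unadjusted p below 0.05. Of these, H2az2 also passed the adjusted threshold (-0.42, adjusted p = 0.0418), as did 0.823% of all genes. In the interaction 3 of 9 were lower and 0 higher with an unadjusted p below 0.05, beside 8.1% and 8.01% of all genes. Of 7 other RNAs without a poly(A) tail, Rn7sk was lower (-0.35, unadjusted p = 0.00163) and Malat1 higher (0.35, unadjusted p = 0.0446) for B12 in diabetic kidneys.

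Genes of S phase and of mitosis are given apart. Of 21 genes of DNA replication, 9 were higher and 12 lower for B12 in diabetic kidneys, and 1 each way had an unadjusted p below 0.05, E2f1 (0.42, unadjusted p = 0.0282) and the helicase gene Mcm4 (-0.41, unadjusted p = 0.00354), with a median of -0.01. For diabetes in untreated kidneys 12 were higher and 9 lower, 4 and 1 of them with an unadjusted p below 0.05, with a median of 0.17, led by Gins2 (0.97, unadjusted p = 0.0011). Of 16 genes of mitosis, all 16 were higher for B12 in diabetic kidneys, 2 of them with an unadjusted p below 0.05, Ccna2 (0.57, unadjusted p = 0.0186) and the proliferation marker Mki67 (0.51, unadjusted p = 0.0284), with a median of 0.35. For B12 in non-diabetic kidneys all 16 were lower, 6 with an unadjusted p below 0.05, with a median of -0.44, and for diabetes in untreated kidneys 8 were higher and 8 lower. For diabetes in B12-treated kidneys all 16 were higher, 10 with an unadjusted p below 0.05, with a median of 0.76, and in the interaction all 16 were higher, 7 with an unadjusted p below 0.05. Of all genes, 6.44% were higher at that threshold for B12 in diabetic kidneys and 3.95% lower for B12 in non-diabetic kidneys. The share of all genes higher was 7.79% for diabetes in B12-treated kidneys and 8.01% in the interaction. In that interaction the median of mitosis genes was 0.75 and that of linker genes -0.72. The 16 mitosis genes together were low, with sums of 25.4 to 29.4 CPM in ND_C and 15.6 to 26.9 in ND_B12. Their sums were 15.9 to 31.1 CPM in D_C and 29.6 to 40.4 in D_B12. D_C and D_B12 thus overlapped, as did ND_C and ND_B12, whereas D_B12 lay above ND_B12.

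Markers of cell types were measured in the same libraries, and their part in the values above was not tested. In D_C 3 and D_C 4, where linker genes were highest, the mean log2 CPM of the 11 kidney epithelium markers was 8.72 to 8.73, against 8.42 to 8.6 in ND_C, 8.52 to 8.72 in ND_B12 and 8.51 to 8.6 in D_B12. Of these 11 markers 5 were higher and 6 lower for B12 in diabetic kidneys, and 1 of those higher and 2 of those lower had an unadjusted p below 0.05. Slc12a1, the sodium, potassium and chloride transporter of the thick ascending limb, was lower for B12 in diabetic kidneys (-0.58, unadjusted p = 0.00153) and Umod, from the same segment, also (-0.46, unadjusted p = 0.0029). All 6 macrophage markers were lower with B12 in diabetes and with diabetes in untreated mice, 3 of them with an unadjusted p below 0.05 in each, with sums of 56.3 to 64.0 CPM in D_B12 and 75.5 to 82.0 in D_C, beside 58.6 to 87.4 in ND_B12 and 82.6 to 99.0 in ND_C. The summed CPM of B cell and plasma cell markers ran from 4.53 to 5.56 in D_B12, from 4.09 to 12.0 in D_C, from 10.1 to 33.1 in ND_B12 and from 12.1 to 45.3 in ND_C, and of these 6 genes Jchain fell with diabetes in untreated (-1.96, adjusted p = 0.0468) and in B12-treated kidneys (-2.23, adjusted p = 0.0423).

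The remaining marker lists had 0 genes with an unadjusted p below 0.05 for B12 in diabetic kidneys. T cell markers (6 genes) had a median of -0.23 there and summed to at most 7.49 CPM in any library. Erythroid markers (6 genes) summed to 238 to 416 CPM. Adipocyte markers (5 genes) ranged from 26.9 to 166 CPM and overlapped in all groups, with Adipoq at 0 CPM in at least 1 library of ND_C, D_C and D_B12. Only 1 of 5 skeletal muscle markers and 2 of 4 adrenal markers reached 100 counts. In D_C 3 and D_C 4 the adipocyte sum was 39.9 to 59.3 CPM and the S phase sum 179 to 185 CPM, beside 161 to 194 over all groups.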

How the data were processed

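RNA of 16 mouse kidneys was measured, 4 per labelled group. Per the methods and labels, the authors demultiplexed reads with bcl2fastq 2.20.0, aligned them to GRCm39 with STAR, and estimated abundances with StringTie, whose coverage was turned into counts per gene and per transcript. The deposited values are thus estimated counts, already whole numbers, and reads shared between copies of a gene were divided by the estimation. Histone copies with near-identical sequence are the most exposed to this. Every column matched 1 sample's labels (0 columns did not), and library totals ran from 65271308 to 91771136. These totals and the spread over 4 mice limit the precision.

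Counts were fitted with edgeR 4.0.16 in R 4.3.3 (TMM scaling, quasi-likelihood test, 1 mean per labelled group over all 16 libraries, no covariate). Genes with at least 100 counts were kept, and p-values were adjusted by Benjamini-Hochberg over all 25408 genes, with a threshold of 0.05. All tests were two-sided. CPM, sums and figures were made with Python 3.11.15, pandas 2.3.3, numpy 2.4.6 and matplotlib 3.10.9. The edgeR fit with TMM scaling and the DESeq2 fit were tested on simulated data, for the B12 comparisons of diabetic and of non-diabetic kidneys only. Positions, promoters and stem-loops were read from GRCm39 with GENCODE M39, whereas the files used M35, and 55 of 64 members had the same gene identifier and version in both. Every linker gene was named, as were the core gene of highest mean CPM in each class and, in each comparison, the 3 core genes with the largest increase and the 3 with the largest decrease among those with an unadjusted p below 0.05. This named 26 members, and other members in the text were chosen after their values were seen. The members and lists were chosen with earlier results of these data known. Alternatives were DESeq2 1.42.0, other scaling, other filters, only the groups compared, the date as a covariate, a replicate block, leaving out each library, and, chosen after seeing the data, leaving out D_C 3 with D_C 4 or the genes H2ac18 with H3c14. The result of 1 kidney epithelium marker is not reported here.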

Additional observations from a re-analysis of the deposited data

Results flagged for a closer look

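In 7 of 112 groups of 4 libraries, taken over 26 named members and the linker and core sums, 1 library stood far from the other 3 by Dixon's ratio of the gap to the range. Chance gives about 1 in 20 such groups. ND_B12 1 stood apart for 3 genes. H2ac21 was at 0.7104 CPM there against 1.195 to 1.199 in the other ND_B12 libraries, H3c14 at 13.67 CPM against 0.1708 to 2.04, and H4c12 at 2.104 CPM against 2.598 to 2.684. H2ac25 was at 19.08 CPM in ND_C 4 against 27.46 to 28.95 in the other ND_C libraries. H2bc14 was at 1.171 CPM in ND_C 1 against 0.3619 to 0.4968. H3c15 was at 2.823 CPM in D_C 2 against 4.327 to 4.597. H3c6 was at 4.197 CPM in D_B12 3 against 2.8 to 2.931. No linker gene was among the 7.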

How the results depend on the processing

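Of the counts of called members, medians and sums, 394 values under the alternatives kept to the reported value and 31 moved. Among named members, 1275 values kept direction and side of the threshold, 33 newly passed, 28 no longer passed and 2 reversed. The members called for B12 in diabetic kidneys, 0 in the report, became 3 with DESeq2, 4 with the date as a covariate and 0 to 1 when 1 library was left out. For diabetes in untreated kidneys the 2 called became 9 with DESeq2, 0 with no filter beyond 1 count, 0 with the date, 0 in a fit of only the groups compared, 0 without D_C 3 and D_C 4, and 0 to 4 when 1 library was left out. For diabetes in B12-treated kidneys the 0 called became 3 with DESeq2 and 0 to 1 when 1 library was left out. In the interaction the 0 called became 2 with DESeq2, 4 with the date and 0 to 3 when 1 library was left out. All-gene calls changed too. For B12 in diabetic kidneys DESeq2 called 569 of all genes and the date fit 204. For diabetes in untreated kidneys these fits called 1467 and 2. They called 1088 and 29 for diabetes in B12-treated kidneys, and 781 and 753 in the interaction. With the date as a covariate the linker median was -1.22 for B12 in diabetic kidneys, -0.065 for diabetes in untreated kidneys and -1.19 for diabetes in B12-treated kidneys, and H1f2 reversed to -0.052 for diabetes in untreated kidneys. Without D_C 3 and D_C 4 the linker median was -0.19 for diabetes in untreated kidneys and -0.11 in the interaction, and H1f4 reversed to 0.025 for B12 in diabetic kidneys. The cause of these differences was not tested.

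Replicate numbers are shared between groups in the labels. Deviations of same-numbered libraries correlated between -0.183 and 0.168, with 3 of 24 pairs over 0.1. No pairing by number was seen, but a pairing of small effect would not show in this check. With the replicate block, 0 members were called for diabetes in untreated kidneys in place of 2. Without H2ac18 and H3c14 the core median was -0.13 for the B12 comparison in diabetes and -0.05 with diabetes in untreated kidneys. Date and group cannot be told apart, and counts of near-identical core genes depend on how reads were divided.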
